A study of Mus musculus with 4 samples.

Results

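The strong distal losses are 364 of 97699 open chromatin regions of MC38/gp100 cells, all lying away from the ends of protein-coding genes and all with a read level at least halved after treatment with GSK3368712. They were chosen on 3 values. The level of a peak is the log2 of its mean normalised read count, and the mean over both groups had to be at least 6.5, which is 90.5 normalised reads. The level under the inhibitor had to be at least 1 below that in DMSO, a log2 difference of -1 or lower. The peak centre had to lie more than 1 kb from either end of every protein-coding gene. The same contrast that chose the peaks gives their levels and differences, so these are reported as a description and carry no test. Location, width and spacing were not used by the choice beyond the 1 kb limit, but peaks are not replicates of a treatment, and no test was run on them either.

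MC38/gp100 is a mouse colon adenocarcinoma line that carries the melanocyte antigen gp100. DMSO, the solvent, was given for 2 of the 4 libraries and 1 µM GSK3368712, which blocks type I arginine methyltransferases, for the other 2, each over 5 days, and open DNA was marked by ATAC-seq, in which a transposase cuts accessible chromatin and adds sequencing adapters. All groups share this 1 line, and no label tells whether replicate libraries were separate cultures. The deposited table gives 1 mean per group, so no value below has a spread between libraries. Of 8 markers of colon epithelium, 1, Krt8, had a peak of at least that level at a gene end, while Epcam, Cdh1, Krt18, Krt19, Krt20, Cdx2 and Vil1 did not, and neither did any of 6 markers of blood and endothelium. Fewer cells with an open site and less opening per cell cannot be told apart in such bulk libraries.

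Type I arginine methyltransferases add 2 methyl groups to the same nitrogen of arginine side chains, on histones and many RNA-binding proteins, and their marks on histones are associated with active genes. Open regions far from gene ends include enhancers, stretches of DNA where transcription factors bind and from which they act on promoters that may be far along the chromosome. Enhancers differ more between cell types and states than promoters do, and the nearest gene is often, but not always, the one an enhancer serves.

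The RefSeq table of transcription start windows overlapped 4 losses, and these windows are the only bases at losses that could be read. The peaks cover 292, 300, 286 and 231 of the 300 bases for Gm34488, Gm36111, Gm36532 and U90926. All 4 windows belong to long noncoding RNA genes. Each line gives the RefSeq window from 250 bases before to 50 bases after the start on GRCm38.p6, 5′ to 3′ on the strand of the gene, with every CG dinucleotide in capitals.
Gm34488, chr11:3566160-3566459, minus strand: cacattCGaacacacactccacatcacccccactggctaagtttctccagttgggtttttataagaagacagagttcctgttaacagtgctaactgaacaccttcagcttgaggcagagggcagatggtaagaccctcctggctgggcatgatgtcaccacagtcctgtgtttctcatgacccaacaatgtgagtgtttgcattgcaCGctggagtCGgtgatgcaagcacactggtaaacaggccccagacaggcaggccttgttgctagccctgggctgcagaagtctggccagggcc
Gm36111, chr11:119191701-119192000, plus strand: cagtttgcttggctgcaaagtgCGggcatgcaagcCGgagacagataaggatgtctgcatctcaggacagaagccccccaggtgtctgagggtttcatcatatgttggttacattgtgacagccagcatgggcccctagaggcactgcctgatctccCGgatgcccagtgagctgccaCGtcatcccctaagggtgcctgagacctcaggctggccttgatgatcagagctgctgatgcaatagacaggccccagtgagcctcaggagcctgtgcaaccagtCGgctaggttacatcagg
Gm36532, chr19:3377441-3377740, minus strand: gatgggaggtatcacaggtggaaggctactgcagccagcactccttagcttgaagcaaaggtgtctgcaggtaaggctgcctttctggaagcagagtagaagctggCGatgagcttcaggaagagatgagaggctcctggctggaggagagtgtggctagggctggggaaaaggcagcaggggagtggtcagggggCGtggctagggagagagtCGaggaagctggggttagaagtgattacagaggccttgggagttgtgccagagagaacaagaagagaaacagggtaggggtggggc
U90926, chr5:92215359-92215658, minus strand: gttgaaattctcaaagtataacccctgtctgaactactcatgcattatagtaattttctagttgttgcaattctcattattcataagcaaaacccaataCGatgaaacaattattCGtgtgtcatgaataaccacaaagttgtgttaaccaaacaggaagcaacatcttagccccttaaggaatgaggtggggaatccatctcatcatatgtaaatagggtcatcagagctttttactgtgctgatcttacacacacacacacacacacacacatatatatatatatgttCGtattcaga
The windows of Gm34488, Gm36532 and U90926 held 3 CG dinucleotides each and that of Gm36111 held 5, against a median of 7 over all 32851 start windows. Values over all start windows, here and below, are no background of distal peaks. Their GC content was 53%, 57%, 35.7% and 57% for Gm34488, Gm36532, U90926 and Gm36111, and the median of all windows was 52.7%. The AP-1 motif TGANTCA, searched on both strands, matched none of the 4 and 7.81% of all windows. The TEAD core GGAATG matched in U90926 once and the RUNX core TGTGGT once each in U90926 and Gm34488, against 14.7% and 16.8% of all windows. The ETS core CCGGAA matched none, against 14.9%. A match here is a description of letters and not a bound site. The matches do not overlap one another.

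The peak that overlaps the start window of Gm34488, on chromosome 11 from 3565942 to 3566451, went from 317 normalised reads in DMSO to 155 under the inhibitor. That of Gm36532, on chromosome 19 from 3376789 to 3377726, went from 254 to 121. The peak at Gm36111, on chromosome 11 from 119191665 to 119192160, went from 187 to 87.4, and that at U90926, on chromosome 5 from 92215428 to 92215730, from 141 to 69.6. All 4 therefore lay near the limit of -1, at differences of -1.03, -1.07, -1.10 and -1.02 in the order given. Start windows overlapped losses more rarely than other strong distal peaks, which lay nearer to gene ends and were wider at the median. The sets were not matched for either when such overlaps were counted. Such an overlap, which need not hold the start itself, was found for 1.10% of the losses, against 5.46% of the 35416 other strong distal peaks and 7.63% of the 19783 whose difference was within 0.2 of zero, called unchanged here. An end of any annotated gene, noncoding genes and pseudogenes included, lay within 1 kb of 21 losses, or 5.77%, against 7.15% of other and 8.12% of unchanged strong distal peaks.

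Strong distal peaks fell to this extent far more often than they rose. Of 35780 strong distal peaks, 364 had a difference of -1 or lower, which is 1.02%, and 27 had one of 1 or higher, which is 0.0755%. With differences scaled to the groups' summed reads the counts were 234 and 34, and after centring on the median of strong peaks 248 and 34. At gene ends the same fall was met by 19 of 11176 strong peaks, or 0.17%, and the same rise by 1, or 0.00895%. Over strong peaks of both locations the fall was met by 0.816%. Among weaker distal peaks, where a mean over 2 libraries rests on few reads, 4.55% fell and 1.46% rose by as much. These shares are fixed by the levels that chose the losses and support no statement about them.

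**Figure D1:**
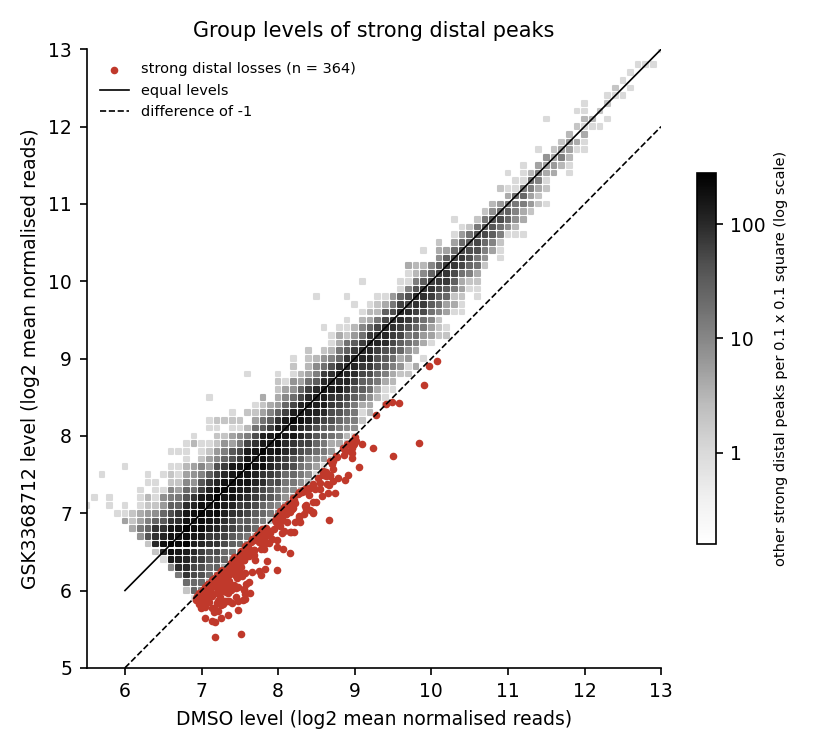
Level of each strong distal peak in DMSO (x axis) and under GSK3368712 (y axis), both as log2 mean normalised reads. Grey squares count the other strong distal peaks, red points are the 364 losses, the solid line marks equal levels and the dashed line a difference of -1. The losses sit on or below the dashed line and mostly between DMSO levels of 7 and 9, and 4 other peaks above a level of 13 lie outside the axes.

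The losses were moderate peaks that became weaker and mostly remained open. Their mean level over both groups had a median of 7.09, against 7.73 for other and 7.89 for unchanged strong distal peaks. At mean levels of 6.5 to 7.5, 251 of 15149 strong distal peaks were losses, or 1.66%. At 9.5 and over, 2 of 4174 were, or 0.0479%. The DMSO levels of the losses ran from 6.93 to 10.07 with a median of 7.56, against 7.78 for other strong distal peaks. Under the inhibitor the levels of the losses ran from 5.4 to 8.97 with a median of 6.41. In reads, the median went from 189 to 85.0. The median difference was -1.12, a ratio of 0.46, and the lowest was -2.08. Most of the losses were close to the limit, with 242 between -1 and -1.2, 122 at -1.2 or lower and 27 at -1.5 or lower. In DMSO, all 364 had been called as peaks by the authors in both libraries, as were 34872 of the 35416 other strong distal peaks. Under the inhibitor 319 losses were still called in both libraries, 24 in 1 and 21 in none. The 21 that were no longer called had a median of 69.6 reads under the inhibitor, against 89.9 for those still called in both, and their lowest difference was -1.66. Among other strong distal peaks 97.4% were called in both inhibitor libraries, against 87.6% of the losses. The calls come from the same libraries as the levels and add no independent evidence.

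The limits cut through a continuum. At the level limit, the loss near Nrip1 had a mean level of 6.5 and a difference of -1.05. At the difference limit, 23 losses had exactly -1, among them one of Stau2, and 17 strong distal peaks had -0.99, among them one of Inpp4a. The loss closest to a gene end lay 1116 bp from Gsdmd, with a difference of -1.42, and a peak 953 bp from Btbd8, at -1.05, was left out as a gene-end peak.

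The share of losses rose with distance from genes. Of strong distal peaks between 1 and 5 kb from a protein-coding gene end, 37 of 8571 were losses, or 0.432%. The share was 0.968% between 5 and 20 kb, 1.32% between 20 and 100 kb and 1.67% beyond 100 kb, where 53 of 3165 peaks were losses. The median difference of all strong distal peaks followed the same order, from -0.05 in the nearest bin through -0.09 and -0.12 to -0.15 in the farthest. The order also held among peaks of like level. For mean levels between 6.5 and 7.5 the shares went from 0.672% through 1.54% and 2.15% to 2.62%, and for levels between 7.5 and 8.5 from 0.516% through 0.887% and 1.03% to 1.61%. The median distance was 25.9 kb for the losses, 14.2 kb for other strong distal peaks and 12.0 kb for unchanged ones. Inside genes the share rose from 0.305% to 1.69% between the nearest and the farthest bin and between genes from 0.602% to 1.66%, so both locations had the gradient.

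**Figure D2:**
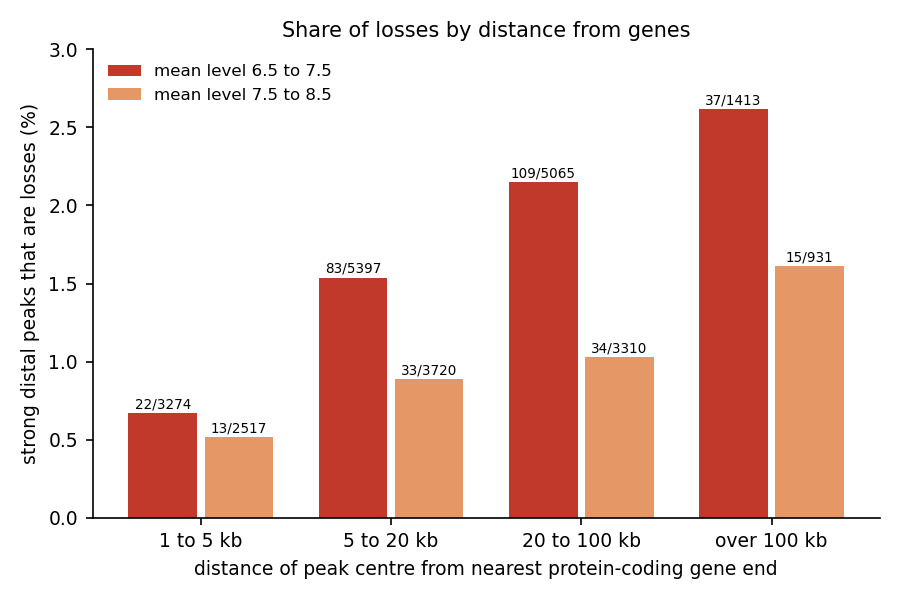
Percentage of strong distal peaks that are losses (y axis) by distance of the peak centre from the nearest protein-coding gene end (x axis), in 2 ranges of mean level. Counts on the bars give losses out of peaks. In both ranges the share is lowest between 1 and 5 kb, at 0.672% and 0.516%, and highest beyond 100 kb, at 2.62% and 1.61%.

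Losses were split almost evenly between gene bodies and the DNA between genes. The centre lay inside a protein-coding gene for 185 losses, or 50.8%, and outside for 179, against 53.1% inside for other and 54.3% inside for unchanged strong distal peaks. The genes that held a loss were long, with a median length of 101 kb, against 74.0 kb for genes holding other strong distal peaks, each peak counted once. Inside genes the losses lay a median of 23.5 kb from an end, and outside 29.6 kb, against 12.9 and 15.7 kb for other strong distal peaks. A peak deep inside a gene needs a long gene, and gene lengths were not compared at like distance. Losses more than 500 kb from any gene end numbered 2, or 0.549%, against 0.455% of other strong distal peaks, so the losses were not mainly sites in the largest gene deserts.

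Every autosome held at least 10 losses. Chromosome 11 had the most, 42 of 3230 strong distal peaks, or 1.30%. The highest shares were 1.49% on chromosome 16, with 15 of 1010, and 1.48% on chromosome 6, with 27 of 1826. The lowest were 0.443% on the X chromosome, with 2 of 451, and 0.482% on chromosome 4, with 10 of 2075. Chromosome Y had 0 of 9. Chromosome 11 had the median difference nearest to zero of all autosomes for strong distal peaks as a whole, at -0.06, although it held the most losses.

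Losses were narrower than other peaks as a whole, but not at every DMSO level, and with no steady order at like mean level. Their median width was 622 bp, with a range from 142 to 2045 bp, against 683 bp for other and 693 bp for unchanged strong distal peaks, and 10.7% were 1000 bp or wider, against 18% and 19.9%. Wider peaks are also stronger. At DMSO levels under 7 the 12 losses had a median of 544 bp and other peaks one of 542 bp. At levels of 7 to 7.5 the 150 losses had a median of 576.5 bp and other peaks one of 597 bp. At levels of 7.5 to 8 the medians were 587.5 and 652 bp, and at 8 to 9 they were 696.5 and 738 bp. Among the strongest, at 9 and over, the 14 losses were the wider, at 1030.5 against 938.5 bp. By the rule, a loss has a lower mean level than another strong distal peak of the same DMSO level. At mean levels of 6.5 to 7.5, losses were 1.42% of strong distal peaks under 300 bp and 1.9% at 1000 bp and over. At 7.5 to 8.5 the shares were 0.913% and 0.751%, and neither range showed a steady order over the widths between. The 5 broadest losses lay near Emcn, which encodes the endothelial surface protein endomucin, near the serine protease gene Klk8, near Plk2, near Rassf8 and near the meiotic gene Hormad2. They measured 2045, 1788, 1517, 1514 and 1448 bp, and had differences of -1.30, -1.18, -1.93, -1.10 and -1.05.

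**Figure D3:**
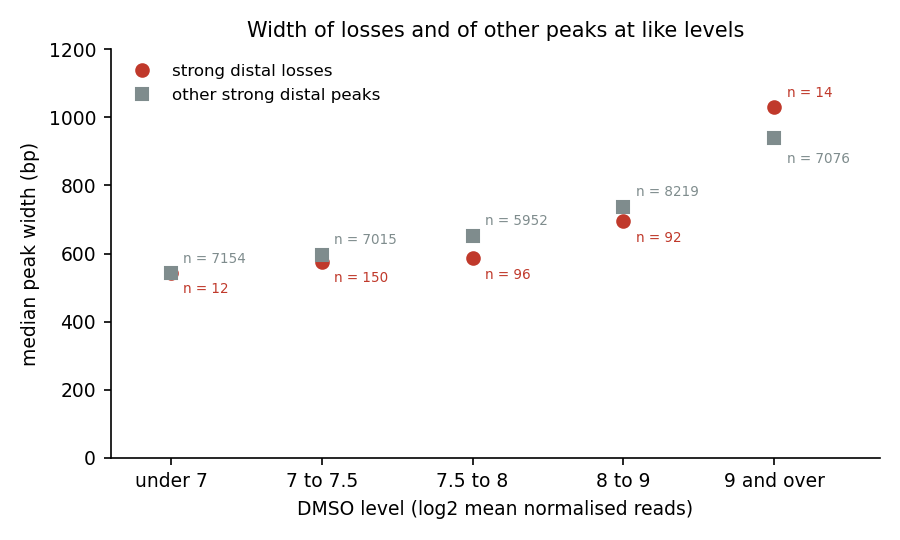
Median peak width in bp (y axis) in 5 ranges of DMSO level (x axis, log2 mean normalised reads), for losses (red circles) and other strong distal peaks (grey squares), with the number of peaks beside each point. Both sets widen with level, and the losses lie below the other peaks from 7 to 9, level with them under 7 (544 against 542 bp) and above them at 9 and over, where there are 14.

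The deepest losses lay near genes of varied function. The lowest difference belonged to an intergenic peak 45.4 kb from Csf2, the gene of the myeloid growth factor GM-CSF, on chromosome 11 from 54201446 to 54202264. It went from 184 reads in DMSO to 43.4 under the inhibitor, a difference of -2.08, and was called in both DMSO libraries and in 1 inhibitor library. The next was the strong peak 233 kb from Plk2, a polo-like kinase gene, at -1.93. A peak 12.8 kb from Cradd, which encodes a death-domain adaptor that binds caspase-2, went from 144 to 42.2 reads, a difference of -1.77, on chromosome 10 from 95336472 to 95337391. Peaks near Polm, which encodes a DNA polymerase of end joining, and near the clock gene Arntl both had -1.76. They were much stronger to begin with, at 407 and 724 reads, and fell to 120 and 214.

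A peak 195 kb from Krr1, a ribosome assembly gene, had -1.72, and one 92.5 kb from the cytokine gene Il6 had -1.71. Peaks inside Galc, which encodes the lysosomal galactosylceramidase, and 29.3 kb from Apip, which encodes an enzyme of methionine salvage, both had -1.68. Next came 3 peaks at -1.66. One lay 4.68 kb from an end of Strada, inside this gene for a partner of the kinase LKB1, on chromosome 11 from 106167415 to 106167886, and went from 186 to 58.9 reads. Both other strong distal peaks of Strada were also low, at -0.99 and -0.98. Another lay 96.4 kb from Inhba, which encodes the subunit of activin A, and went from 198 to 62.7 reads. The last lay inside Myof, which encodes the membrane protein myoferlin, and went from 162 to 51.3 reads, with no call in either inhibitor library. A peak inside the sialyltransferase gene St6gal1 had -1.61. So did a broad one of 1318 bp, 39.2 kb from Ddah1, which encodes an enzyme that breaks down free asymmetric dimethylarginine. It lies on chromosome 3 from 145718795 to 145720112 and went from 153 to 50.2 reads. Together with a peak near the unnamed gene 1600014C23Rik, at -1.62, these are the 15 lowest differences.

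The losses strongest in DMSO ended well above the level limit. The strongest lay 53.9 kb from Irf2bpl, on chromosome 12 from 86826318 to 86827273, and went from 1075 to 501 reads, a difference of -1.10. A peak inside Slc23a2, which encodes a vitamin C transporter, went from 1003 to 478 reads, and one inside Arhgap42, which encodes a GTPase-activating protein, from 962 to 405. The peak near Plk2 went from 917 to 241 and one 52.5 kb from Tut7, an RNA uridylyltransferase gene, from 765 to 343. Of these 5 strongest, the peak near Plk2 had by far the lowest difference, and the other 4 lay between -1.25 and -1.07.

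Losses lay near genes of cytokines and of growth factor signalling, as near those of most other lists, in small numbers. The lists were chosen with earlier results of these data known, so their shares are descriptions only. A share of 3.13% of the 11092 genes with a strong distal peak assigned to them had a loss, 347 genes in all, and 1.02% of their strong distal peaks were losses. Genes with more strong distal peaks have more that can be losses, and the lists were not matched for this number. A peak is assigned to the gene that holds its centre or else to the nearest gene end. Of 20 cytokine and chemokine genes with such a peak, 3 had a loss, and 3 of their 79 peaks were losses, or 3.8%. Beside Csf2 and Il6 this was Il1a, the gene of interleukin-1 alpha, where a peak 6.14 kb away went from 167 to 64.4 reads. Of 29 genes of growth factor receptors and feedback, 4 had a loss, with 6 losses among 215 peaks, or 2.79%. Lrig1, which encodes a membrane protein that restrains ErbB receptors, had 2 inside the gene, at -1.30 and -1.15. Spry2, whose Sprouty protein dampens growth factor signals, had 2 at -1.05 and -1.04, which lay 17.2 and 217 kb from the gene. A peak 53.5 kb from Met, the gene of the hepatocyte growth factor receptor, had -1.26, and one 125 kb from Dusp4, a MAP kinase phosphatase gene, had -1.03.

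Among 25 genes of TGF-beta and BMP signalling 3 had a loss, with 3 of 140 peaks, or 2.14%. They were Inhba, Tgfbr3, the co-receptor gene, at -1.10, and Smad3, the gene of a signal transducer, at -1.01. Among 29 genes for epithelial and mesenchymal transcription factors 6 had a loss, with 6 of 237 peaks, or 2.53%. A peak inside Mkx, a homeobox gene of tendon, went from 530 to 194 reads, a difference of -1.45. One 69.8 kb from Klf5, a gene active in intestinal epithelium, went from 399 to 167 reads, at -1.26. Peaks assigned to the forkhead gene Foxa2 and to Sox4 had -1.11 and -1.06, and Creb5 and Sox9 had 1 loss each. Of 18 circadian clock genes 3 had a loss, with 3 of 77 peaks, or 3.90%. Beside Arntl these were Rora, at -1.10, and Bhlhe41, a clock repressor gene, at -1.03.

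The remaining lists varied. Of 21 genes of antigen presentation and checkpoint ligands 3 had a loss, with 3 of 87 peaks, or 3.45%, near the interferon response genes Irf1 and Irf2 at -1.19 and -1.07 and inside Cd86, which encodes a costimulatory ligand of T cells, at -1.19. Of 32 matrix and adhesion genes 2 had one, with 2 of 221 peaks, or 0.905%, at Fmod and Thbs2, with -1.51 and -1.09. Among 28 immediate early genes, AP-1 factors included, 1 had one, with 1 of 188 peaks, or 0.532%, at Egr1. That peak, 6.11 kb from the gene, went from 208 to 84.4 reads and was called in neither inhibitor library. Of 17 Hippo and Wnt targets 1 had one, with 1 of 99 peaks, at Ccn1, which encodes a secreted matrix protein. The Ccn1 peak was the narrowest loss, at 142 bp, and lay 78.6 kb from that near Ddah1. Of 10 genes of the arginine methyltransferases and their partners 0 had one among 26 peaks. The counts are small, and no test was run on the lists.

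The ends of the same genes moved little, with few exceptions. Of the 347 genes with a loss, 243 had a strong peak within 1 kb of a gene end, and the strongest such peak of each had a median difference of -0.02, with quartiles of -0.09 and 0.06. For 6692 genes with strong distal peaks and no loss the median was -0.03, with quartiles of -0.10 and 0.04. A gene-end difference of -0.5 or lower was found for 4 of the 243, or 1.65%, the lowest at -1.27, and for 53 of the 6692, or 0.792%. Over all strong gene-end peaks this fall was met by 1.15%. A rise of 0.5 was found for 0 of the 243, against 0.286% of all strong gene-end peaks. The gene-end peak of Csf2 had -0.25, that of Il6 -0.12, that of Plk2 -0.11, and those of Klf5, Lrig1 and Met -0.06, -0.06 and -0.10. At Mkx and Fmod the gene end lay above zero, at 0.22 and 0.12. Of the 24 listed genes with a named loss, 18 had a peak at a gene end, and these ran from -0.25 to 0.22. All lay above the loss of the same gene. Losses were chosen at -1 or lower, which 0.17% of strong gene-end peaks met, so this order was nearly set by the choice.

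**Figure D4:**
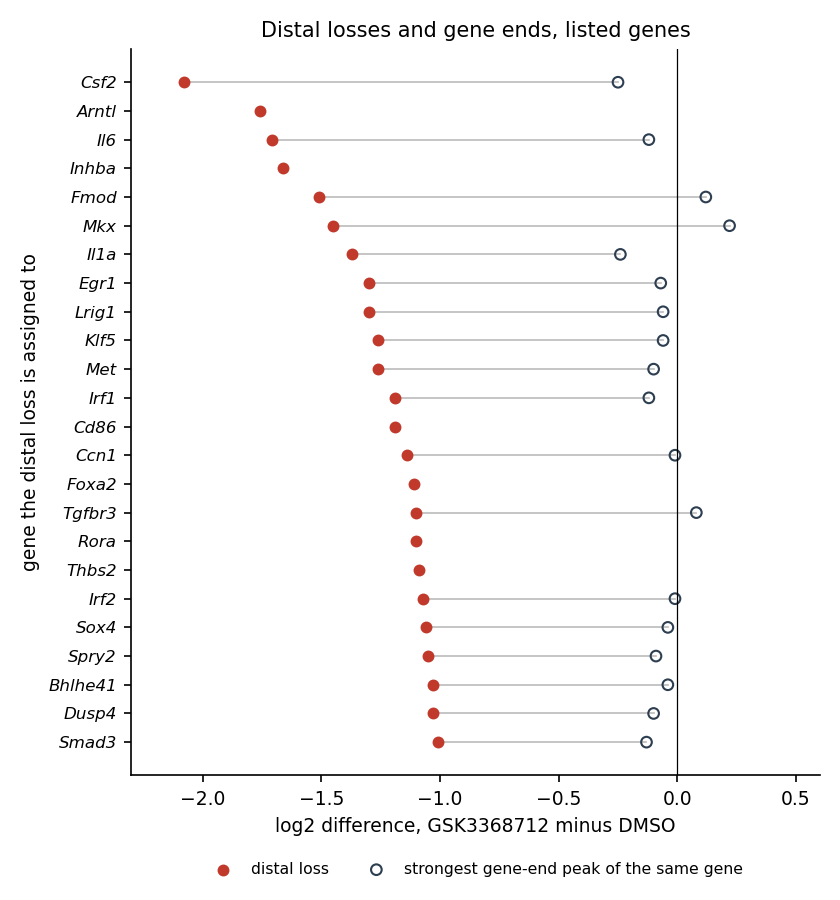
Log2 difference, GSK3368712 minus DMSO (x axis), of the distal loss (red) and of the strongest peak within 1 kb of an end of the gene it is assigned to (open circles), for the 24 listed genes with a named loss (y axis). Genes with no gene-end peak have no circle, and where a gene has 2 losses the lower is drawn. The losses, chosen at -1 or lower, lie at -1.01 or lower and the gene ends between -0.25 and 0.22.

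Losses mostly stood alone. Another loss lay within 50 kb of 25 of them, or 6.87%, while 339 had none. Among other strong distal peaks 4.02% had a loss within 50 kb. Within 10 kb the shares were 3.30%, which is 12 losses, and 0.853%, and within 500 kb 31.9% and 24.8%. Some close losses may be parts of 1 site. With neighbouring losses merged within 1 kb, 361 remained, and 5.54% of them had another within 50 kb. The share within 10 kb is not given after merging. The surroundings were not denser in open sites, since losses had a median of 3 other strong distal peaks within 50 kb, and other strong distal peaks one of 4. Chained at gaps of at most 50 kb, the losses formed 12 groups, 1 of 3 and 11 of 2, which spanned from 0.599 to 46.6 kb. The 347 genes with a loss include 17 with 2 losses, and none had more.

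The group of 3 held 1 loss 6.98 kb from Ccl17, a chemokine gene, and 2 inside Ciapin1, on chromosome 8 from 94802208 to 94826704. Its members had -1.17, -1.2 and -1.22, and the strongest, inside Ciapin1, went from 410 to 179 reads. The 5 other peaks between them had a median difference of 0.02. A pair lay near Tnfsf11, the gene of RANKL, and Akap11, on chromosome 14 from 78383200 to 78420726, at -1.17 and -1.35. A pair between 30.9 and 34.8 kb from Bcas1 had -1.45 and -1.17, with 1 weak peak between them at -0.84. A pair at Tnip1, which encodes an inhibitor of NF-kB signalling, and Anxa6 had -1.16 and -1.32, and the 5 peaks between them a median of -0.19. A pair inside Nol10 had -1.12 and -1.08. Those at Lrig1 and 1600014C23Rik were the closest, with centres 0.599 and 0.905 kb apart.

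Peaks around a loss were shifted in the same direction, over a short range. Strong distal peaks 1 to 5 kb from a loss, losses left out, had a median difference of -0.24, against -0.10 for those 1 to 5 kb from other strong distal peaks. Between 5 and 20 kb the medians were -0.18 and -0.09, between 20 and 100 kb -0.12 and -0.09, and between 100 and 500 kb -0.09 and -0.09. A difference of -0.5 or lower was met by 19.7% of 137 neighbours at 1 to 5 kb and by 17.0% of 482 at 5 to 20 kb. Over all strong distal peaks other than losses it was met by 9.57%. By gene the picture was alike, since other strong distal peaks assigned to the genes with a loss had a median of -0.16, with 15.1% at -0.5 or lower, against -0.09 and 9.20% for genes without one. Examples are Plk2, whose 13 other strong distal peaks had a median of -0.37, and Klf5, whose 10 had one of -0.37. At Csf2 the 6 others had a median of -0.06 and none lay below -0.25, so its deep loss stood apart from its neighbours. At Fmod the 4 others had a median of 0.00. These neighbours come from the same 4 libraries as the losses, and distance from genes moves with the difference, so their values are a description.

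**Figure D5:**
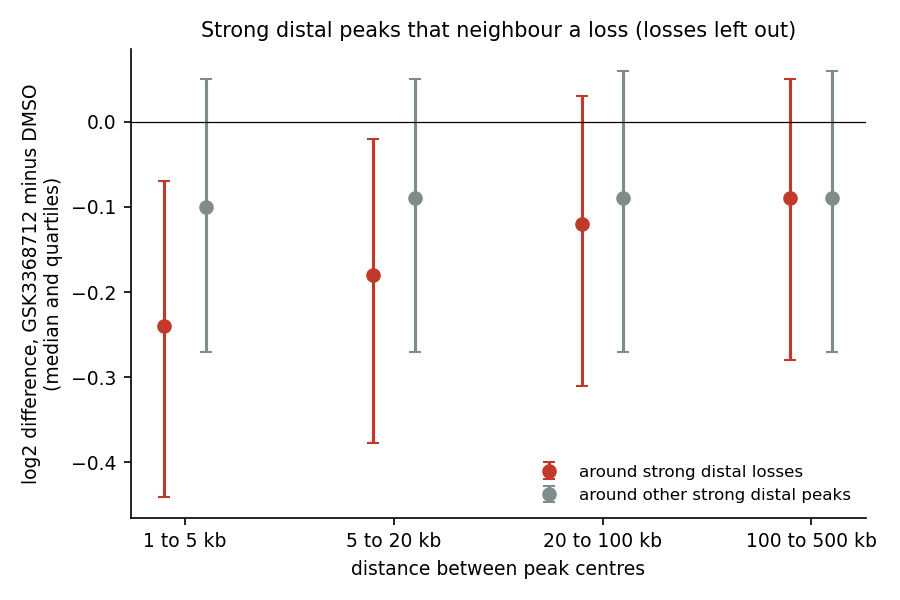
Log2 difference, GSK3368712 minus DMSO (y axis), of strong distal peaks by distance from a loss (red) or from any other strong distal peak (grey), with losses left out. Points are medians and bars run from the lower to the upper quartile. Around losses the median goes from -0.24 at 1 to 5 kb to -0.09 at 100 to 500 kb, while around other peaks it stays between -0.10 and -0.09.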

How the data were processed

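ATAC-seq was run on 4 libraries, 2 per group. The submitters' processing notes name DiffBind 2.8.0, DESeq2, MACS2 2.1.1.20160309, HISAT2 2.1.0 and Picard 1.113 and the build mm10. Settings, and any shift of reads for the transposase, were not given in the sources used here. What was deposited is a table of 97699 peaks whose log2 values, per the file headers, are mean normalised read counts over all libraries and per group. It also gives widths and, for each group, how many libraries had the peak called. The first group of these calls was taken as DMSO, following the order in which DiffBind writes its groups. The deposited fold, p-value and adjusted p-value were not used. The depth of each library is unknown, and group means give no interval.

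Differences are the inhibitor level minus the DMSO level. Distances run from peak centres to gene ends of 21883 protein-coding RefSeq genes of GRCm38.p6, the assembly behind mm10, and all 267 list symbols matched. Gene ends cover both ends, since strand was not used. The members and lists were chosen with earlier results of these data known. Named were the 15 lowest differences, the 5 highest DMSO levels, the 5 broadest peaks, the largest 5 groups (ties by DMSO level), genes with 2 losses, of which only some are described, and up to 4 genes per list by DMSO level. Stau2, Inpp4a, Nrip1, Gsdmd and Btbd8 mark the limits, and Creb5 and Sox9 complete a list. The peak just under the level limit is not reported here. The comparisons are descriptions with no test. Distance and assignment were tested on simulated data against direct search. Python 3.11.15, pandas 2.3.3, numpy 2.4.6, scipy 1.17.1 and matplotlib 3.10.9 were used.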

Additional observations from a re-analysis of the deposited data

How the results depend on the processing

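No paired analysis was possible because the table holds 1 mean per group and no value per library, and for the same reason no library could be left out. Of 10 alternatives, those that ask for more or less moved the count of losses. It was 602 at a level of at least 6 and 204 at 7, 965 at a difference of -0.8 and 122 at -1.2, and 234 with differences scaled to the groups' summed reads, which takes off -0.08 and leaves 34 gains. As a share of strong distal peaks these were 1.34%, 0.736%, 2.70%, 0.341% and 0.654%, and it was 0.693% after centring on the median of strong peaks, -0.07, and 1.2% beyond 5 kb from gene ends. The median width was 554.5 bp at a level of at least 6 and 664.5 bp at 7, against 622 bp. The share with another loss within 50 kb was 1.96% at a level of at least 7 and 17.5% at a difference of -0.8, against 6.87%. The median difference of all peaks 1 to 10 kb from a loss, -0.21, was -0.17 under both scalings. Both scalings raise every difference alike, so the median of -0.07 over all peaks other than losses rises too. The share inside genes ran from 49.5% to 54.4% over all 10, against 50.8%. These lay within its 95% binomial interval, which counts peaks as independent draws and gives no spread between libraries. Labels name no spike-in, so an absolute scale is not given.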
